A study of Mus musculus with 16 samples.

Results

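Cyclic AMP phosphodiesterases are the enzymes that break down cAMP, and 10 of their genes were followed here in cultured progenitors of mouse inguinal white fat. The genes were chosen by symbol: Pde3a, Pde3b, Pde4a, Pde4b, Pde4d, Pde7a, Pde7b, Pde8a, Pde10a and Pde11a. All 10 were found among the 27179 entries of the gene table, and all 10 were among the 14005 genes with enough reads to be tested. The cells were PDGFRb+ adipose progenitors (APCs) from C57BL/6 mice, sorted into a DPP4_neg and a DPP4_pos population and grown in medium with 10% serum. Each population was given PBS as vehicle or isoproterenol, labelled as 10 mM, for 4 h. This gave 4 groups of 4 RNA-seq libraries: DPP4_neg vehicle, DPP4_neg isoproterenol, DPP4_pos vehicle and DPP4_pos isoproterenol. Isoproterenol mimics noradrenaline at beta-adrenergic receptors, and the labelled dose is far above those usual in culture. Nothing in the labels ties the 4 libraries of a group to different cultures or mice, and the p-values therefore cover the library-to-library spread alone, part or all of which may be technical. The age of the mice is not given in the sources used here.

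Beta-adrenergic receptors act through a stimulatory G protein on adenylyl cyclases, which make cAMP, and cAMP in turn activates protein kinase A. Phosphodiesterases hydrolyse cAMP to AMP and so set how high and how long the signal runs. The PDE4, PDE7 and PDE8 enzymes act on cAMP alone. The PDE3, PDE10 and PDE11 enzymes also bind or hydrolyse cGMP, so the 10 genes include enzymes with both substrates. In fat cells PDE3B is known for its part in the restraint of lipolysis by insulin, and transcription of some PDE4 genes is known to be induced by cAMP itself.

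Libraries held 9823799 to 28627223 reads in genes, with 9823799 to 16563940 in DPP4_pos isoproterenol, the group with the shallowest library. Dpp4, the gene behind the sort, had means of 21.1 ± 4.16 and 3053 ± 186 normalized counts in DPP4_neg and DPP4_pos vehicle libraries (SD, n = 4). After isoproterenol its means were 9.89 ± 2.29 and 2223 ± 97.7, a fall by 1.02 ± 0.13 and 0.46 ± 0.13 on the log2 scale (limma, adjusted p = 4.12e-07 and 0.00257). Pdgfrb, the other sort marker, was present in all 16 libraries, and went from 11315 to 9028 in DPP4_neg and from 7562 to 2105 in DPP4_pos APCs. All 8 genes of a PDGFRb+ stromal list were detected. Crem, an inducible transcription factor of the cAMP pathway, went from 128 to 3169 normalized counts in DPP4_neg and from 128 to 5532 in DPP4_pos APCs given isoproterenol.

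After isoproterenol, Pde3b, Pde4b, Pde4d, Pde7b, Pde8a and Pde10a rose in both populations, and Pde3a and Pde4a fell in both. Pde7a and Pde11a went opposite ways in the populations. In DPP4_neg APCs 7 of 10 genes rose and 3 fell, and of all genes tested 32.1% rose and 33.6% fell (limma, adjusted p under 0.05). In DPP4_pos APCs 7 rose and 3 fell as well, against 39.4% and 43.3% of all genes tested. Since 65.7% and 82.7% of all genes passed the test in the 2 populations, the sizes say more than 10 of 10 passing. At least 2-fold rises were found for 5 of the 10 genes in each population, where 6.27% and 11.5% of all genes did. Pde4b, Pde4d, Pde7b and Pde10a were among them in both, Pde11a in DPP4_neg only and Pde3b in DPP4_pos only. Falls of at least 2-fold were found for Pde3a and Pde11a in DPP4_pos APCs, and for no member in DPP4_neg APCs. The share of all genes with such falls is not given here. Vehicle and isoproterenol libraries did not overlap for any of the 10 genes in either population, which held for 58.9% of all genes in DPP4_neg and 77.8% in DPP4_pos APCs. The median change of the 10 genes was 1.18 on the log2 scale in DPP4_neg and 0.93 in DPP4_pos APCs, beside medians of -0.02 and -0.05 over all genes tested. In bulk samples fewer cells of a type and less RNA per cell cannot be told apart, and this holds for each level below.

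**Figure D1:**
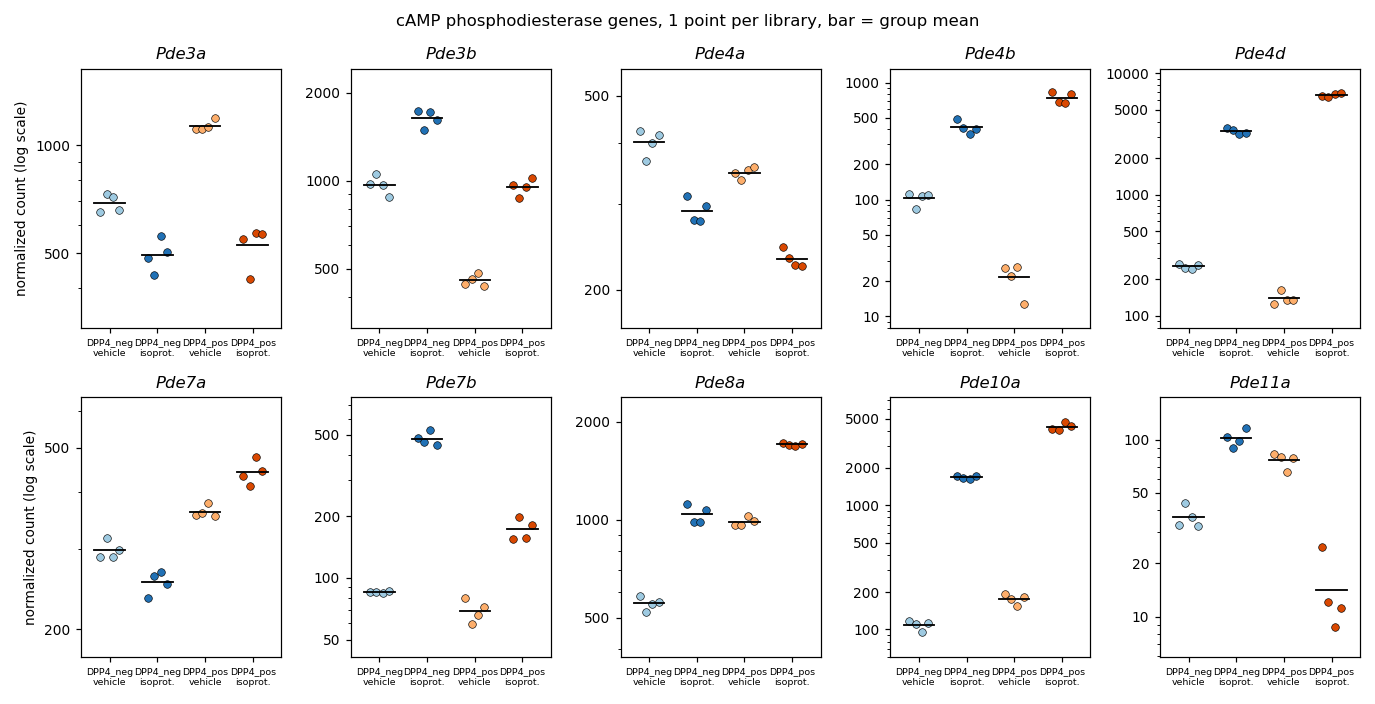
Normalized counts (y axis, log scale, own range per panel) of the 10 genes in each library (points) of the 4 groups (x axis), with the group mean as a bar. The highest group mean is 47.7 times the lowest for Pde4d, 39.6 times for Pde10a and 34.0 times for Pde4b, and Pde11a is lowest in DPP4_pos isoproterenol libraries.

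Promoter sequence from RefSeq (GRCm38.p6, 250 bases before to 50 after an annotated start) was matched to 7 of the 10 genes, with 13 windows. Pde3a, Pde3b and Pde7a had none. The windows were searched for the cAMP response element TGACGTCA and for its core TGACG, which lies within the full element, on both strands (CGTCA on the other). None of the 13 windows held the full element, which 1.79% of all 32851 windows did. The core was in 3 of 13, one each for Pde4a, Pde4b and Pde8a, and in 20.8% of all windows. A match is a description of letters and not a bound site, and isoforms with other starts were not covered. The stretches below lie upstream of the start and outside annotated exons, except the short Pde4b one, which lies partly in an annotated exon and is shown only around its core. Pde4d and Pde10a are shown as the genes that rose most in DPP4_neg APCs, and the others for their core, in capitals. Pde10a had another window, chr17:8849735-8850034, also without the core, which is not shown. All 5 stretches shown are on the plus strand.
Pde4d, chr13:108653927-108654104: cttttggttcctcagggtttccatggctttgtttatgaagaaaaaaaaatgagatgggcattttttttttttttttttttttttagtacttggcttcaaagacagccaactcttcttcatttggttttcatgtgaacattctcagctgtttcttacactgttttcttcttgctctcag
Pde10a, chr17:8801495-8801692: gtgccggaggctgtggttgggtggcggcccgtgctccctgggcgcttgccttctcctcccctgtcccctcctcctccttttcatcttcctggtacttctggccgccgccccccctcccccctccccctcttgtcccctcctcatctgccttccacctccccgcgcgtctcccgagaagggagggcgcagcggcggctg
Pde8a, chr7:81213015-81213264: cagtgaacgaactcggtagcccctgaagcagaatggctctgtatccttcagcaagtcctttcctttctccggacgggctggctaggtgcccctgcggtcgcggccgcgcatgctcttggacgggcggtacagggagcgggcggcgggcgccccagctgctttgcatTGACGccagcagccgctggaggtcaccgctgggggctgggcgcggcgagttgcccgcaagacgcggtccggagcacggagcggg
Pde4a, chr9:21183851-21184100: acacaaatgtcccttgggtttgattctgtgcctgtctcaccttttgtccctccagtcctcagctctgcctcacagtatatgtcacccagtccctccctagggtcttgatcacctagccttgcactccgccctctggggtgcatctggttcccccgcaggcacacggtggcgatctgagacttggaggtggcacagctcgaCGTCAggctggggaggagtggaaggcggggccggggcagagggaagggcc
Pde4b, chr4:102421509-102421538: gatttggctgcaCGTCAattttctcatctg

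Pde4d encodes a cAMP-specific enzyme with long and short forms, and the gene (chr13:108449948-109953461 in GENCODE's GRCm38 annotation) has 20 annotated transcripts that a gene count does not separate. Its normalized counts were 267, 249, 241 and 263 in the DPP4_neg vehicle libraries and 3543, 3407, 3186 and 3204 after isoproterenol. The DPP4_pos libraries had 125, 162, 136 and 135 under vehicle and 6547, 6375, 6804 and 6885 after isoproterenol. No groups overlapped, and the population with the lower vehicle level had the higher level after isoproterenol. The rise was 13.0-fold in DPP4_neg and 47.5-fold in DPP4_pos APCs, or 3.70 ± 0.06 and 5.57 ± 0.06 on the log2 scale (limma, ± SE, adjusted p = 2.22e-22 and 1.04e-25). Folds here are taken on log2(normalized count + 1), which understates the change of low genes. The responses differed by 1.87 ± 0.09 (limma, adjusted p = 6.31e-14).

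Pde4b, another cAMP-specific PDE4 gene (chr4:102087543-102607259), is known as an enzyme of inflammatory cells and is present in many others. It had 112, 83.7, 107 and 109 normalized counts in DPP4_neg vehicle libraries and 485, 413, 368 and 404 after isoproterenol. In DPP4_pos APCs it had 26.0, 22.3, 26.6 and 12.7 under vehicle and 826, 678, 669 and 804 after isoproterenol. The DPP4_pos vehicle values rest on 15 to 30 reads per library, the fewest of the 4 groups, and no groups overlapped. The rise was 4.03-fold in DPP4_neg and 33.6-fold in DPP4_pos APCs, and the difference between the responses was 3.06 ± 0.23 on the log2 scale (limma, adjusted p = 2.22e-10). Of the 10 genes this was the widest gap between the responses in the direction of DPP4_pos APCs.

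Pde4a, the third PDE4 gene (chr9:21165714-21213248), fell where Pde4b and Pde4d rose. It had 424, 368, 401 and 415 normalized counts in DPP4_neg vehicle and 311, 278, 276 and 297 in DPP4_neg isoproterenol libraries. In DPP4_pos APCs it had 347, 336, 352 and 357 under vehicle and 245, 232, 225 and 224 after isoproterenol. Its changes were small beside those of Pde4b and Pde4d, at -0.47 ± 0.06 and -0.59 ± 0.06 on the log2 scale (limma, adjusted p = 6.09e-07 and 9.17e-09). The difference between the responses was not past the test, at -0.12 with a 95% interval from -0.30 to 0.06 (limma, adjusted p = 0.23), and it became 0.0028 under quantile normalization.

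Pde10a encodes an enzyme for both cAMP and cGMP with regulatory GAF domains, best known from striatal neurons (chr17:8525372-8986648). Its normalized counts were 117, 111, 94.6 and 112 in DPP4_neg vehicle and 1732, 1650.4, 1626 and 1734 in DPP4_neg isoproterenol libraries. The DPP4_pos libraries had 193, 176, 156 and 183 under vehicle and 4135, 4025, 4682 and 4356 after isoproterenol. The 4 groups stood apart, and DPP4_pos APCs had the higher level under both treatments. The rise was 15.4-fold in DPP4_neg and 24.2-fold in DPP4_pos APCs, with a difference of 0.65 ± 0.10 on the log2 scale (limma, adjusted p = 5e-06).

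Pde11a, the other gene of the set with GAF domains and both substrates (chr2:75989141-76338774), went in opposite directions in the populations. In DPP4_neg APCs its normalized counts were 32.8, 43.8, 36.4 and 32.5 under vehicle and 103, 89.6, 97.8 and 117 after isoproterenol. In DPP4_pos APCs they were 82.5, 79.5, 65.5 and 78.6 under vehicle and 24.7, 12.2, 8.77 and 11.3 after isoproterenol. The last group rests on 41 reads in all, 6 to 22 per library. The change was 1.46 ± 0.21 in DPP4_neg and -2.44 ± 0.21 in DPP4_pos APCs on the log2 scale (limma, adjusted p = 3.24e-06 and 6.05e-10). The difference between the responses, -3.91 ± 0.30, was the widest of the 10 genes in either direction (limma, adjusted p = 3.1e-10).

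Pde3b encodes the enzyme through which insulin lowers cAMP in fat cells (chr7:114415281-114539251). Its normalized counts were 974, 1053, 962 and 881 in DPP4_neg vehicle and 1735, 1496, 1718 and 1613 in DPP4_neg isoproterenol libraries. In DPP4_pos APCs they were 442, 461, 482 and 435 under vehicle and 964, 871, 953 and 1018 after isoproterenol. DPP4_pos libraries after isoproterenol overlapped DPP4_neg libraries under vehicle, while all other neighbouring groups stood apart. The rise was 0.76 ± 0.06 in DPP4_neg and 1.06 ± 0.06 in DPP4_pos APCs on the log2 scale, and the difference of 0.30 ± 0.08 passed the test (limma, adjusted p = 0.0036).

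Pde3a, the related gene known from heart muscle, platelets and oocytes (chr6:141249269-141507448), moved the other way. It had 651, 731, 717 and 659.7 normalized counts in DPP4_neg vehicle and 484, 435, 560.0 and 505 in DPP4_neg isoproterenol libraries. In DPP4_pos APCs it had 1114, 1108, 1127 and 1196 under vehicle and 547, 423, 571 and 567 after isoproterenol. The isoproterenol groups overlapped and the vehicle groups did not. It fell by 0.48 ± 0.08 in DPP4_neg and by 1.12 ± 0.08 in DPP4_pos APCs on the log2 scale (limma, adjusted p = 2.38e-05 and 2.81e-11), and the responses differed by -0.64 ± 0.11 (limma, adjusted p = 5.7e-05). An antisense gene overlaps exons of Pde3a and another overlaps those of Pde7a. The shared bases, summed over the antisense exons, were 741 beside 12737 exon bases of Pde3a, and 48 beside 7748 of Pde7a. Since the counting is not stated to use strand, reads of the partners in these shared bases cannot be told apart.

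Pde7b, a cAMP-specific gene whose enzyme is insensitive to the PDE4 inhibitor rolipram (chr10:20398004-20725078), rose more in DPP4_neg APCs. Its normalized counts were 85.4, 85.7, 84.0 and 85.9 in DPP4_neg vehicle and 480.2, 461, 525 and 448 in DPP4_neg isoproterenol libraries. In DPP4_pos APCs they were 79.8, 59.5, 65.5 and 71.8 under vehicle and 155, 199, 156 and 180.4 after isoproterenol. The groups did not overlap. The rise was 5.55-fold in DPP4_neg and 2.48-fold in DPP4_pos APCs, and the responses differed by -1.16 ± 0.14 on the log2 scale (limma, adjusted p = 2.35e-07).

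Pde7a, its closest relative (chr3:19223108-19311322), changed little and in opposite directions. It had 288, 317, 287 and 298 normalized counts in DPP4_neg vehicle and 234, 261, 267 and 251 in DPP4_neg isoproterenol libraries. In DPP4_pos APCs it had 357, 359, 377 and 354 under vehicle and 433, 413, 478 and 443 after isoproterenol. The changes were -0.23 ± 0.06 and 0.29 ± 0.06 on the log2 scale (limma, adjusted p = 0.00178 and 0.00017), with no overlap between groups. The small rise in DPP4_pos APCs rests on the size factors used. Summed over genes, normalized counts there were 1.52e+07 to 1.54e+07 per library under vehicle. After isoproterenol these sums were higher, at 1.84e+07 to 1.86e+07. In DPP4_neg libraries of both treatments they were 1.60e+07 to 1.62e+07. The size factors therefore bear on every comparison with DPP4_pos isoproterenol libraries, and matter most for small differences. The Pde7a rise was 0.23 to 0.33 under the alternatives run, and the Pde3b difference between responses 0.22 to 0.34. Scaling to the library total was not tested. Genes that changed in opposite directions in the populations made up 6.37% of all genes tested, and Pde7a and Pde11a were the 2 of the 10 that did.

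Pde8a encodes an enzyme with a very high affinity for cAMP that is insensitive to the general inhibitor IBMX (chr7:81213596-81334533). Its normalized counts were 585, 523, 551 and 559 in DPP4_neg vehicle and 1115, 985, 987 and 1074 in DPP4_neg isoproterenol libraries. The DPP4_pos libraries had 964, 964, 1027 and 988 under vehicle and 1720.2, 1697, 1688 and 1714 after isoproterenol. DPP4_neg libraries after isoproterenol overlapped DPP4_pos libraries under vehicle. The rise was 0.91 ± 0.04 in DPP4_neg and 0.79 ± 0.04 in DPP4_pos APCs on the log2 scale (limma, adjusted p = 7.41e-14 and 3.49e-13). The difference between the responses was -0.12 with a 95% interval from -0.25 to 0.02 (limma, adjusted p = 0.115), and it passed the test under 3 other settings, at -0.18 with TMM scaling, -0.38 with quantile normalization and -0.17 with edgeR (adjusted p = 0.0183, 2.69e-05 and 0.0247).

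The isoproterenol responses differed between the populations for 8 of the 10 genes, beside 62.6% of all genes tested (limma, adjusted p under 0.05). Pde3b, Pde4b, Pde4d, Pde7a and Pde10a had the higher response in DPP4_pos APCs, and Pde3a, Pde7b and Pde11a the higher in DPP4_neg APCs, where 31.6% and 31.0% of all genes did. Differences of at least 2-fold were found for 4 of the 10, Pde4b, Pde4d, Pde7b and Pde11a, beside 15.6% of all genes. The median difference was 0.09 on the log2 scale, and -0.02 over all genes.

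**Figure D2:**
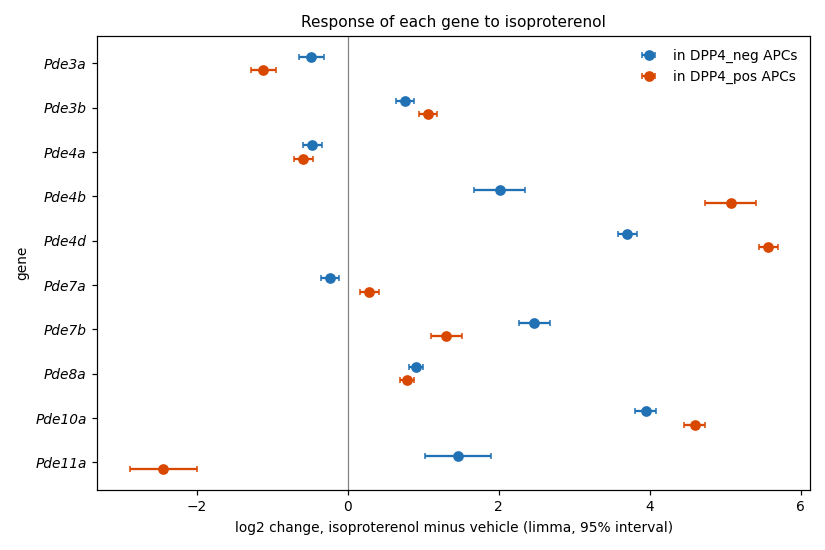
Log2 change after isoproterenol (x axis, limma estimate with its 95% interval) of each gene (y axis) in DPP4_neg and DPP4_pos APCs. Pde4d reaches 5.57 and Pde4b 5.07 in DPP4_pos APCs, and Pde11a lies at 1.46 and -2.44 on either side of 0.

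Between the populations under vehicle, Pde3a, Pde7a, Pde8a, Pde10a and Pde11a were higher in DPP4_pos APCs, and Pde3b, Pde4a, Pde4b, Pde4d and Pde7b were lower. All 10 passed the test, beside 66.6% of all genes, with 31.6% higher and 35.0% lower (limma, adjusted p under 0.05). Pde4b had the widest gap, at -2.23 ± 0.16 on the log2 scale, followed by Pde3b at -1.08 ± 0.06 and Pde11a at 1.06 ± 0.21 (limma, adjusted p = 7.12e-11, 3.72e-13 and 0.000162). Pde4a had the narrowest, at -0.21 ± 0.06 (limma, adjusted p = 0.00465). Every one of these 10 genes had vehicle groups that did not overlap, as 67.3% of all genes had.

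After isoproterenol, 9 of the 10 genes differed between the populations, beside 74.4% of all genes tested, with 5 higher and 4 lower in DPP4_pos APCs, as 37.4% and 37.0% of all genes were. The isoproterenol groups did not overlap for 9 of the 10, beside 63.9% of all genes. Pde3a was the exception, at 0.08 with a 95% interval from -0.09 to 0.25 (limma, adjusted p = 0.362). DPP4_pos isoproterenol replicate 2, with 423 normalized counts, was below the other 3 libraries of its group, and without it the Pde3a difference was 0.18 and passed (limma, adjusted p = 0.0162). Pde4b and Pde4d changed places, from lower in DPP4_pos APCs under vehicle to higher after isoproterenol, at 0.83 ± 0.16 on the log2 scale for Pde4b and with a 95% interval from 0.87 to 1.12 for Pde4d. Pde11a changed places the other way, to -2.85 ± 0.21. Such a change of sign, with both differences past the test, was found in 14.9% of all genes tested. The comparisons of treatment and of population use the same libraries, so their values are given side by side and not as independent evidence.

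**Figure D3:**
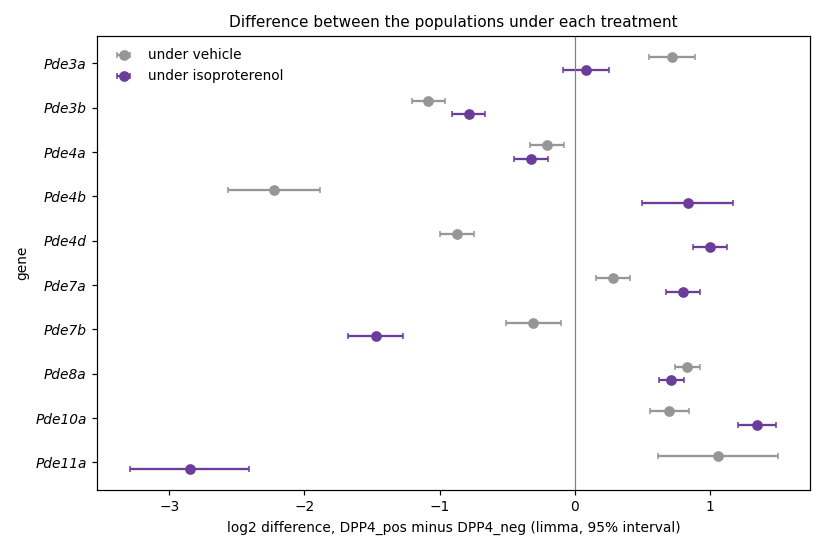
Log2 difference between DPP4_pos and DPP4_neg APCs (x axis, limma estimate with its 95% interval) for each gene (y axis) under vehicle and under isoproterenol. Pde4b, Pde4d and Pde11a lie on opposite sides of 0 under the 2 treatments, and the Pde3a interval under isoproterenol includes 0.

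By order of the group means, 5 of the 10 genes (Pde4b, Pde4d, Pde7a, Pde8a and Pde10a) were highest in DPP4_pos isoproterenol libraries and 3 (Pde3b, Pde7b and Pde11a) in DPP4_neg isoproterenol libraries. Pde4a was highest in DPP4_neg vehicle and Pde3a in DPP4_pos vehicle libraries. The ratio of the highest to the lowest group mean was 47.7 for Pde4d, 39.6 for Pde10a and 34.0 for Pde4b. It was 7.15 for Pde11a and 6.92 for Pde7b, and from 1.74 for Pde4a to 3.61 for Pde3b among the others. Neighbouring groups in the order overlapped for Pde3a, Pde3b and Pde8a, once each, and for none of the other 7 genes.

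To compare levels between genes, normalized counts were divided by the length of all annotated exons of each gene in kilobases (kb). On this scale Pde8a led the 10 genes under vehicle in both populations. It held 31.0% of their summed level in DPP4_neg and 46.6% in DPP4_pos APCs. Pde3b was next in DPP4_neg vehicle libraries with 24.0%, and Pde3a in DPP4_pos vehicle libraries with 17.1%. After isoproterenol Pde4d led, with 26.4% in DPP4_neg and 34.0% in DPP4_pos APCs, and Pde8a followed with 24.4% and 25.9%. The summed level went from 441.6 to 1053 per kb in DPP4_neg and from 522.7 to 1630 per kb in DPP4_pos APCs, or from 610.6 to 1913 and from 649.1 to 3109 per kb of the longest coding transcript. Other phosphodiesterases are outside these sums and shares. Pde2a had 870.2 normalized counts over 6149 exon bases in DPP4_neg vehicle libraries, where Pde8a had 554 over 4045. In DPP4_neg isoproterenol libraries Pde2a had 219. RNA levels do not give enzyme activity.

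Pde4d and Pde10a together held 6.73% ± 0.366 of the summed level in DPP4_neg vehicle and 38.8% ± 1.17 in DPP4_neg isoproterenol libraries (SD, n = 4). In DPP4_pos APCs they held 4.86% ± 0.366 and 54.5% ± 1.04. By the longest coding transcript these shares were 12.2% and 52.8% in DPP4_neg and 8.63% and 68.7% in DPP4_pos APCs. The share of the cGMP-inhibited genes Pde3a and Pde3b went from 36.3% to 20.8% in DPP4_neg and from 26.6% to 8.93% in DPP4_pos APCs. The summed level of the 10 genes rose, so a lower share is not in itself a lower level. Per kb of exon, Pde3b went from 106 to 180 in DPP4_neg and from 49.9 to 104 in DPP4_pos APCs. Pde3a went from 54.2 to 39.0 and from 89.2 to 41.4. Within the PDE4 genes, Pde4d went from 25.5% to 78.2% in DPP4_neg and from 19.7% to 84.6% in DPP4_pos APCs. With the length of the longest coding transcript in place of all exons, Pde4d held 41.4% and 50.9% of the level after isoproterenol, Pde10a passed Pde8a in DPP4_pos isoproterenol libraries (17.8% and 14.4%), and Pde3b and Pde8a held 24.1% and 23.9% in DPP4_neg vehicle libraries. The shares and the size of the summed rise thus depend on the length used.

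**Figure D4:**
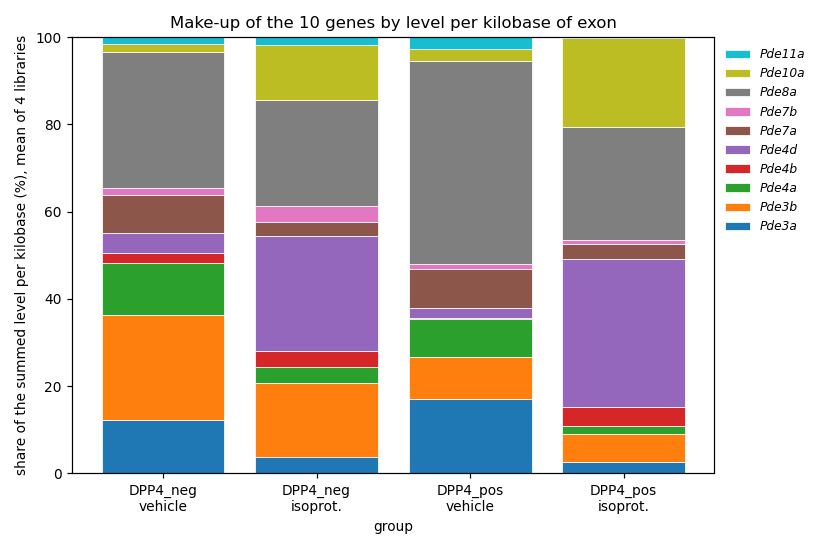
Share of each of the 10 genes in their summed level per kb of exon (y axis, percent, mean of 4 libraries, no error drawn) in the 4 groups (x axis). Pde8a is the largest block under vehicle (31.0% and 46.6%) and Pde4d under isoproterenol (26.4% and 34.0%).

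Of 13 other phosphodiesterase genes, 5 had enough reads to be tested, and several of them also act on cAMP. Pde1a and Pde1b encode enzymes driven by calcium and calmodulin, Pde2a one stimulated by cGMP, Pde8b a cAMP-specific one and Pde5a one for cGMP alone. In each population 1 of the 5 rose after isoproterenol and 4 fell, so all 5 passed the test where 65.7% and 82.7% of all genes did, with list medians of -1.03 and -1.18 on the log2 scale. Pde1a rose by 0.99 ± 0.06 in DPP4_neg and by 0.21 ± 0.06 in DPP4_pos APCs on the log2 scale (limma, adjusted p = 3.64e-12 and 0.00315). Its group means were 537 and 1066 normalized counts in DPP4_neg and 824 and 958 in DPP4_pos APCs under vehicle and isoproterenol. In DPP4_pos APCs the libraries overlapped, at 793 to 848 under vehicle and 832 to 1026 after isoproterenol. That small rise rests on the size factors used, like that of Pde7a, and no values under the alternatives are given for it.

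Pde1b went from 275 to 31.1 normalized counts in DPP4_neg and from 126 to 9.17 in DPP4_pos APCs, the last a mean over 25 reads in all. These were changes of -3.11 ± 0.20 and -3.74 ± 0.20 on the log2 scale, which did not differ past the threshold (-0.63, 95% interval -1.23 to -0.04, limma, adjusted p = 0.0597). Pde2a went from 870.2 to 219 in DPP4_neg and from 133 to 49.4 in DPP4_pos APCs, and Pde5a from 963 to 470.4 and from 219.9 to 163. The changes were -1.99 ± 0.09 and -1.41 ± 0.09 on the log2 scale for Pde2a and -1.03 ± 0.08 and -0.44 ± 0.08 for Pde5a (limma, adjusted p = 1.73e-05 or lower). Pde2a and Pde5a were thus higher in DPP4_neg APCs under both treatments. Pde8b went from 124 to 74.6 and from 105 to 45.8, a fall by 0.72 ± 0.11 and 1.18 ± 0.11 on the log2 scale in populations where Pde8a rose (limma, adjusted p = 9.03e-06 and 2.96e-09). The 8 genes not tested, Pde1c, Pde4c, Pde6a, Pde6b, Pde6c, Pde6g, Pde6h and Pde9a, did not exceed 15.1 normalized counts in any library.

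**Figure D5:**
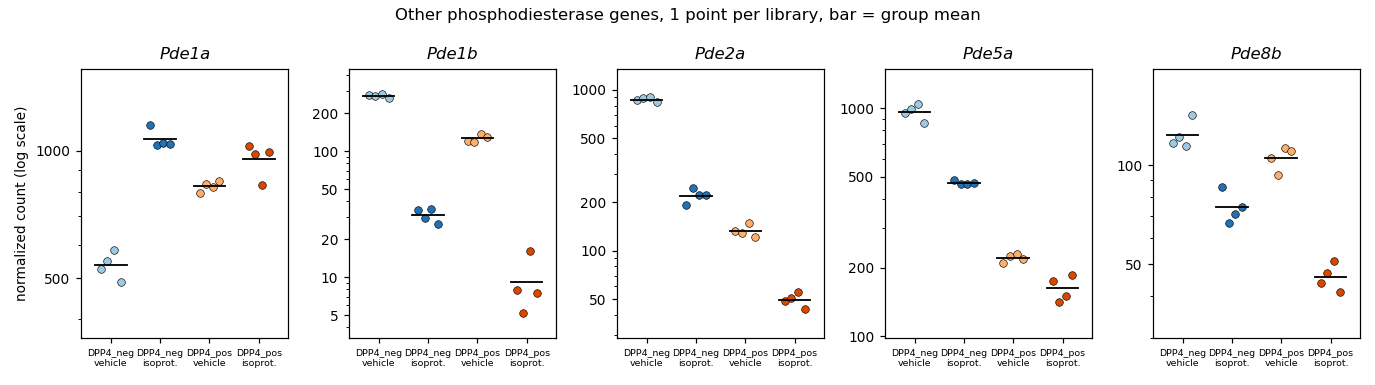
Normalized counts (y axis, log scale, own range per panel) of the 5 other tested phosphodiesterase genes in each library (points) of the 4 groups (x axis), with the group mean as a bar. Pde1b, Pde2a, Pde5a and Pde8b are lower after isoproterenol in both populations. Pde1a is higher by its group means, with overlapping libraries in DPP4_pos APCs.

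The enzymes are held near their targets by A-kinase anchoring proteins and other partners. Of 18 tested partner and anchor genes, 4 rose and 5 fell in DPP4_neg APCs, and 7 rose and 4 fell in DPP4_pos APCs, with list medians of -0.11 and -0.03 on the log2 scale. These are 9 and 11 of 18 genes past the test, beside 65.7% and 82.7% of all genes tested. The widest changes were those of Akap6, an anchor that binds PDE4D, and Pik3r5, a regulatory subunit of PI3K gamma. Akap6 had group means of 29.7, 21.7, 4.50 and 36.0 normalized counts in DPP4_neg vehicle, DPP4_neg isoproterenol, DPP4_pos vehicle and DPP4_pos isoproterenol libraries. It rose by 2.77 ± 0.25 on the log2 scale in DPP4_pos APCs, from 22 reads in all under vehicle, and its change in DPP4_neg APCs was -0.45 (limma, adjusted p = 9.39e-10 and 0.12). Pik3r5 had group means of 9.64, 6.35, 32.6 and 5.72 in the same order, the last over 15 reads in all, 2 to 5 per library. DPP4_pos vehicle was the only group with all its libraries above the filter of 10, so Pik3r5 is described by its levels alone.

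Among 22 tested genes of cAMP synthesis, sensing and export, 8 rose and 11 fell in DPP4_neg APCs and 10 rose and 9 fell in DPP4_pos APCs. These are 19 of 22 past the test in each population, beside 65.7% and 82.7% of all genes tested. Crem rose by 4.62 ± 0.06 and 5.42 ± 0.06 on the log2 scale in the 2 populations (limma, adjusted p = 4.12e-24 and 1.04e-25), a difference between the responses of 0.80 ± 0.08. Adcy2, an adenylyl cyclase, had group means of 60.7 and 301 normalized counts in DPP4_neg and 291 and 1438 in DPP4_pos APCs under vehicle and isoproterenol. It rose by 2.31 ± 0.10 and 2.30 ± 0.10 on the log2 scale, and the difference between the responses was 0.00 with a 95% interval from -0.29 to 0.28 (limma, adjusted p = 0.979). The list medians were -0.18 in DPP4_neg and 0.03 in DPP4_pos APCs, with the medians of all genes as given above.

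The genes most alike in pattern were found by Pearson's r of log2(normalized count + 1) over the 16 libraries, among genes with a mean of at least 50, for the 3 phosphodiesterases with the widest range. Pde4d was matched by Tsku (r = 0.998), Hs2st1 (0.997) and Marchf3 (0.997), Pde10a by Cd55, Ugdh and Srxn1 (each 0.998), and Pde4b by Smim3 (0.994), Cdr2 (0.992) and Gas5 (0.991). The libraries share the 4 groups, so a gene whose group means are spaced in like proportion can give a high r. The values are a description. The sizes differ within a match. Cd55 went from 127 to 5899 and from 291 to 18620 normalized counts in DPP4_neg and DPP4_pos APCs, and Tsku from 472 to 1336 and from 372 to 1763.

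Markers of the sorted cells and of other cells moved with the groups. Of 7 markers of DPP4+ progenitors, 5 rose and 2 fell after isoproterenol in each population, and Dpp4 itself was among those that fell. Of all genes tested, 32.1% rose and 33.6% fell in DPP4_neg, and 39.4% and 43.3% in DPP4_pos APCs. Their summed level in DPP4_neg libraries was 8192 to 8656 under vehicle and 11878 to 12618 after isoproterenol. It was 11309 to 11738 and 50429 to 54949 in DPP4_pos libraries. Cd55, named above as alike to Pde10a, is one of these markers. In DPP4_neg APCs its mean rose from 127 to 5899. That is more than the rise of the mean sum, from 8429 to 12251. In DPP4_pos APCs Cd55 rose from 291 to 18620 and the mean sum from 11500 to 52858. The summed level of 7 adipocyte markers was 57909 to 67396 under vehicle and 20318 to 24740 under isoproterenol in DPP4_neg libraries. The DPP4_pos libraries had 17432 to 19881 under vehicle and 4901 to 5850 under isoproterenol, and Lep was at 0 in all libraries given isoproterenol. All 6 tested adipocyte markers fell with isoproterenol in both populations and were lower in DPP4_pos APCs. Pde4a among the 10 genes, and Pde1b, Pde2a and Pde5a among the other phosphodiesterases, had the same directions. Of all genes tested, 33.6% fell in DPP4_neg and 43.3% in DPP4_pos APCs. In DPP4_pos APCs 35.0% were lower under vehicle and 37.0% after isoproterenol. The share with the whole pattern was not counted. Pde4a fell by less, at -0.47 and -0.59 on the log2 scale beside adipocyte list medians of -1.99 and -2.20. The sum of 8 mural markers was 75007 to 119696 in DPP4_neg and 5006 to 8987 in DPP4_pos libraries. Sums were 430.1 to 1740 for 8 macrophage and leukocyte markers, 33.1 to 880 for 6 endothelial markers, 61.8 to 257 for 5 Schwann cell markers, 90.2 to 1447 for 6 skeletal muscle markers and 1.12 to 87.5 for 6 mesothelial and epithelial markers. Ckm was at 0 in all groups, Myf5 in 3 groups and Myod1 in DPP4_neg vehicle, and Sox10, Msln, Epcam and Krt8 were at 0 in DPP4_pos isoproterenol libraries. The endothelial sum was highest in DPP4_pos isoproterenol libraries, the group in which Pde4b, Pde4d and Pde10a were highest. The endothelial list did not move as 1, however. Of its 4 tested markers, 1 rose with isoproterenol in DPP4_pos APCs, 1 fell and 2 did not pass (limma, adjusted p under 0.05). Of all genes tested, 39.4% rose and 43.3% fell there. The part of these cells and of the marker changes in the phosphodiesterase values was not tested.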

How the data were processed

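Gene expression was measured by RNA-seq from 500 ng of RNA in each of 16 libraries. Tools listed in the submitters' processing notes are DESeq2 (1.6.3), featureCounts (1.4.6), HISAT2 (2.0.1) and Trim Galore (0.4.1), and the builds listed are mm10 and GRCm38. The sources used here do not give how they were combined, the strand setting or the annotation. Per its header and values, the deposited file gives a normalized signal, which is a read count over a size factor for the library. Whole reads were recovered for 100.0% of 280334 values above 0, within 0.001. Rows without a symbol (958) held 0.0926% of the signal.

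Genes with at least 10 normalized counts in at least 4 libraries (14005) were tested with limma 3.58.1 (R 4.3.3, mean-variance trend). The fit of log2(normalized count + 1) used 4 group means over all 16 libraries, with Benjamini-Hochberg adjustment over all genes tested. Alternatives were another pseudocount or filter, TMM or quantile scaling, a fit without the trend or with only the groups compared, the replicate number as a block, leaving out each library, and edgeR 4.0.16 and DESeq2 1.42.0 on the recovered reads. The scripts were tested on simulated data. Exon lengths and gene positions came from GENCODE's GRCm38 annotation.

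The genes, lists and tests were chosen with earlier results of these data known. All 10 genes are named. Other phosphodiesterases are given by counts and, where tested, by values, the partner and cAMP lists by counts with the 2 widest changes each, and Crem, Dpp4 and Pdgfrb as checks.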

Additional observations from a re-analysis of the deposited data

Results flagged for a closer look

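In 60 sets of a gene and a group, 2 had a library apart from the others by Dixon's test, where chance gives about 1 in 20. Pde3a in DPP4_pos isoproterenol replicate 2 had 423.4 normalized counts, and the other libraries had 547.2 to 571.4. Pde1a in DPP4_neg isoproterenol replicate 1 had 1152, and the others had 1029 to 1044.

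The isoproterenol response differed between the populations, by the interaction test, for 12 of the 15 tested phosphodiesterase genes, beside 62.6% of all genes tested. As the DPP4_pos response minus the DPP4_neg response on the log2 scale, the difference was 3.06 for Pde4b, 1.87 for Pde4d, 0.65 for Pde10a, 0.59 for Pde5a, 0.57 for Pde2a, 0.52 for Pde7a and 0.30 for Pde3b. It was -3.91 for Pde11a, -1.16 for Pde7b, -0.78 for Pde1a, -0.64 for Pde3a and -0.46 for Pde8b.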

How the results depend on the processing

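For the 10 genes in 5 comparisons, 1020 values were recomputed under alternatives, and 1015 kept their direction and their side of the threshold. The exceptions were the Pde4a difference between responses, which was 0.0028 under quantile normalization, the Pde8a difference under TMM, quantile normalization and edgeR, and Pde3a between the populations after isoproterenol without DPP4_pos isoproterenol replicate 2. Of all genes called for the difference between responses, 50.5% had the higher response in DPP4_pos APCs, 44.5% under TMM and 46.8% under quantile normalization. Leaving out 1 library gave 8707 to 9021 genes called for isoproterenol in DPP4_neg, 11298 to 11442 in DPP4_pos, 8420 to 8699 for the difference, and 8838 to 8984 and 10150 to 10319 between the populations under vehicle and isoproterenol. The order of the 4 group means was kept for 10 of 10 genes under TMM and for 9 or 10 without 1 library (9 without DPP4_neg vehicle replicate 2 or DPP4_pos isoproterenol replicate 2). On recovered reads edgeR called 9543, 11581, 8773, 9833 and 10242 genes in the same order of comparisons, and DESeq2 9175, 11354, 8408, 9478 and 9965.

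No clear pairing of the libraries by replicate number was seen. Deviations of same-numbered libraries correlated at -0.231 to 0.131 over 24 pairs, 1 of them over 0.1. Of 16 libraries, 6 were closest to their own number. With 4 libraries per group, this check cannot exclude a paired design. With the replicate number as a block, 9295, 11612, 8854, 9393 and 10451 genes were called, and 10, 10, 8, 10 and 9 of the 10 genes, as without it. Depth limits Pde11a in DPP4_pos isoproterenol (41 reads in all) and Pde4b in DPP4_pos vehicle libraries (104 reads) most.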
